A study of Mus musculus with 16 samples.

Results

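Hepatocyte plasma protein gene loci were examined in an ATAC-seq atlas of mouse pancreatic cancer cells grown in 3 organs. The loci belong to 10 genes, Alb, Afp, Apoa1, Apob, Ttr, Trf, Fgb, Ahsg, Cps1 and Apoh, and peaks were assigned to them by position alone. A peak is an interval of open chromatin in 1 atlas merged over the samples, and need not be open in each. It was taken as a member when the protein-coding transcription start site nearest to its midpoint, within 100 kb, belonged to 1 of these genes. The rule found 64 of the 136630 nuclear peaks of the table. They fell to 8 of the 10 genes: 20 to Apob, 18 to Apoa1, 8 to Ttr, 5 each to Cps1 and Trf, 3 each to Apoh and Ahsg and 2 to Alb. Afp and Fgb had none.

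Hepatocytes secrete most of the proteins of blood plasma. Albumin (Alb) carries fatty acids and hormones, α-fetoprotein (Afp) is its fetal relative, transferrin (Trf) carries iron, transthyretin (Ttr) carries thyroid hormone and retinol-binding protein, and fibrinogen β (Fgb) is a chain of the clotting protein. Apolipoproteins B and A1 (Apob and Apoa1) are the main proteins of low- and high-density lipoproteins, Apoh binds phospholipids, fetuin-A (Ahsg) binds calcium phosphate, and Cps1 is not secreted but starts the urea cycle in mitochondria. In the liver these genes are driven by factors of the HNF1, HNF4, C/EBP, FOXA and ONECUT families, which bind promoters and distal enhancers. Apob, Ttr and Trf are also transcribed in some other epithelia.

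All samples held KC-shSmad4 cells: tumour-derived lines carrying Ptf1a-Cre (active in the pancreatic lineage), rtTA3 with the mKate2 reporter, and a doxycycline-inducible Smad4 hairpin linked to GFP, transduced with firefly luciferase. They were transplanted into female athymic nude mice of 6 to 8 weeks, which lack T cells, on doxycycline, into the pancreas (Panc, 100000 cells), through the spleen into the liver (Liv, 400000 cells) or through the tail vein into the lungs (Lung, 250000 cells). The drug was kept on (Smad4 off, OFF) or withdrawn for 14 days (Smad4 restored, ON), from week 4 on for pancreas tumours, week 5 for liver and week 6 for lung, and 60000 mKate2-positive cells were sorted per sample. Panc_OFF, Panc_ON, Lung_OFF and Lung_ON had n = 3 and Liv_OFF and Liv_ON had n = 2, 16 samples in all. The names of the deposited lung columns give day 15, those of pancreas and liver day 14. Each sample came from its own mouse. Organ cannot be told apart from weeks of growth or route of injection, and the labels do not say which cell line each sample held. Samples held 23.0 M to 38.2 M reads in peaks.

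Values are normalised counts, the reads in a peak divided by the size factor of the sample. Differences are on the scale of log2(normalised count + 1) with their SE from limma over all 136630 peaks, and a call required an adjusted p no larger than 0.1 together with an absolute log2 difference reaching 0.58. Distances are signed along the gene, negative upstream, and coordinates are on mm10. In bulk cells, fewer cells with an open site and less accessibility per cell cannot be told apart.

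The start sites themselves were mostly not covered by a peak. A peak covered the start site of 3 of the 10 genes (Apob, Ttr and Trf) and of none of the other 7. For Alb on chromosome 5 (gene 90460897 to 90476602) the nearest peak lay 6557 bp into the gene over an exon. For Afp, 14198 bp separated the start site from the nearest peak midpoint, which was assigned to the neighbour Afm and held 10.5 to 44.2 normalised counts over the 16 samples. For Fgb the distance was 5121 bp, to a peak assigned to Plrg1 with 920 to 1435 normalised counts. Ahsg, Cps1, Apoa1 and Apoh had their nearest peaks at 7540, 2424, 1695 and 1093 bp.

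Of the 10 genes, 7 had an entry in the RefSeq promoter table (GRCm38.p6, the same build as mm10). The sequences of Alb and Apob are shown for contrast, the Alb start site having no peak and the Apob start site a peak of at least 212 normalised counts in each of the 16 samples. The pair was chosen after the values were seen. Each gives the 250 bases before the RefSeq start, 5′ to 3′ on the plus strand, chr5:90460620-90460869 for Alb and chr12:7977427-7977676 for Apob. Capitals mark matches, on either strand, to HNF1 (GTTAATNAT), HNF4 (CAAAGTCCA), C/EBP (TTGCNNAA), FOXA (TGTTTAC), ONECUT (ATTGATT), AP-1 (TGANTCA) or KLF (CCACNCCC).
Alb promoter: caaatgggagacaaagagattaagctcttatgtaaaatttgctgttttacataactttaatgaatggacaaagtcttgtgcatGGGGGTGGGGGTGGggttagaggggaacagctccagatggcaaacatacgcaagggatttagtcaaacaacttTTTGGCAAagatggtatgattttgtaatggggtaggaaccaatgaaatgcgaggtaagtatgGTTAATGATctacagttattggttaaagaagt
Apob promoter: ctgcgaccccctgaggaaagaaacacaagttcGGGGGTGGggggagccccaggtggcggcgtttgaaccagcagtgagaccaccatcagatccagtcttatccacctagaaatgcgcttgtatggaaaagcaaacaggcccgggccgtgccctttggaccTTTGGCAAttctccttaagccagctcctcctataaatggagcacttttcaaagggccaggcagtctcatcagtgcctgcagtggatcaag
Counted from 1 at the first base, the Alb sequence held HNF1 letters at 219 to 227, C/EBP letters at 157 to 164 and overlapping KLF matches at 84 to 97. The Apob sequence held KLF letters at 33 to 40 and C/EBP letters at 161 to 168, and no HNF1 or HNF4 match. HNF1 letters were found in 0.737% of the 32851 promoters of the table at this length, C/EBP letters in 9.56% and KLF letters in 15.9%. Among the other 5 entries only Afp held an HNF1 match. A match is a run of letters and not a measured binding site.

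With Smad4 off, the loci split by gene between liver and lung. Of the 64 peaks, 21 were higher in Liv_OFF than in Lung_OFF (32.8%, against 22.9% of all nuclear peaks) and 19 were lower (29.7%, against 26.8%). The median log2 difference was 0.32 over the members and 0.00 over all peaks. Apob had 9 higher and 4 lower of 20, Ttr 5 higher and 0 lower of 8, Apoh 3 higher of 3 and Cps1 2 higher of 5. Apoa1 had 2 higher and 8 lower of 18, Trf 0 higher and 3 lower of 5, Ahsg 3 lower of 3 and Alb 1 lower of 2. When each sample was left out in turn, 22 of the 40 calls were kept throughout. Against Panc_OFF, 22 member peaks were higher in Liv_OFF (26.2% of all peaks were) and 17 were lower (32.3% of all), with a median of 0.21 against −0.05 over all peaks. This comparison and the one with the lungs share the Liv_OFF samples. Over both Smad4 states, all 4 liver samples lay above all 12 others at 15 member peaks (23.4%, against 18.2% of all peaks) and below them at 4 (6.25%, against 10.1%). The 15 were 5 Ttr, 4 Apob, 3 Apoh, 2 Apoa1 peaks and 1 Cps1 peak.

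**Figure D1:**
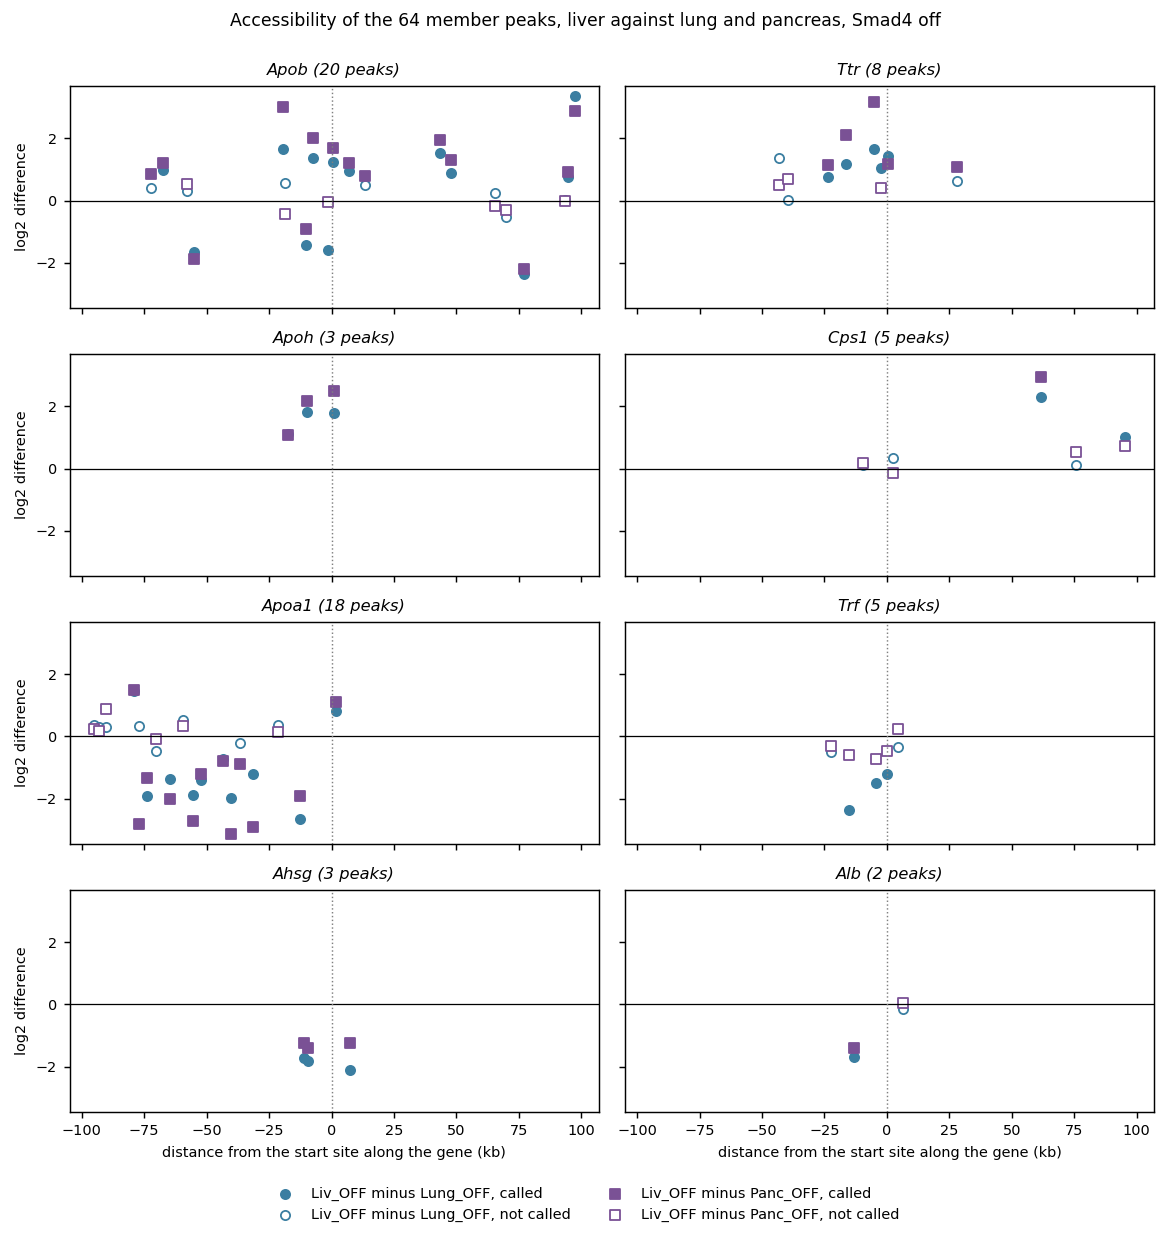
Each panel is 1 gene. The horizontal axis is the distance of each peak midpoint from the start site along the gene in kb, and the vertical axis the log2 difference of Liv_OFF minus Lung_OFF (circles) or minus Panc_OFF (squares), filled where called. Ttr and Apoh lie at or above 0, Ahsg lies below 0, and Apoa1 is above 0 at the gene (0.81 and 1.11) with 8 and 10 of its 18 peaks called lower.

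Apob showed the most peaks. Its start-site peak on chromosome 12 (7977201 to 7978872, promoter) held 942 and 844 normalised counts in Liv_OFF, 330, 447 and 362 in Lung_OFF and 241, 310 and 285 in Panc_OFF. Liv_OFF was above both other groups with no overlap, by 1.24 ± 0.27 (SE) over the lungs (adjusted p = 0.00168) and 1.68 ± 0.27 over the pancreas (adjusted p = 0.000122). With Smad4 restored the liver values were 519 and 794, those of the lungs 343, 359 and 548 and those of the pancreas 212, 236 and 406. The restored liver and lung groups overlapped, although the peak was called (0.66 ± 0.27, adjusted p = 0.0715).

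The distal peaks of Apob went both ways. At −19.5 kb (7957903 to 7958347, intergenic) the 2 Liv_OFF samples held 60.5 and 41.8, the lungs 11, 21.7 and 14.6 and the pancreas 5.12, 6.25 and 4.63. The liver was higher by 1.66 ± 0.46 and 3.03 ± 0.46 (adjusted p = 0.00807 and 8.71e-05). At +97.3 kb (8074821 to 8075104) the 4 liver samples held 21.3 to 31.4 while all others held 0 to 7.86, and the log2 differences were 3.37 ± 0.92 and 2.88 ± 0.92 (adjusted p = 0.00741 and 0.0139). Upstream at −55.1 kb (7921960 to 7923059) the order was the opposite, with 24.7 and 37.6 in Liv_OFF, 87.4, 70.6 and 158 in Lung_OFF and 96.5, 135 and 114 in Panc_OFF. All 4 liver samples (24.7 to 41.9) were below all others at this peak, which was the Apob peak of smallest p between liver and lung (−1.67 ± 0.34, adjusted p = 0.00106). The strongest Apob peak, at −57.8 kb, held 569 to 1145 normalised counts in the 16 samples and was not called between liver and lung (0.32 ± 0.22).

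At Ttr on chromosome 18 no peak was called lower in the liver. The start-site peak (20664891 to 20666473, promoter) held 231 and 164 in Liv_OFF, 52.5, 96.7 and 73.2 in Lung_OFF and 79.4, 96.5 and 80.6 in Panc_OFF. All 4 liver samples (164 to 242) were above the 12 others (20.4 to 96.7). The difference of Liv_OFF was 1.42 ± 0.35 from the lungs (adjusted p = 0.00392) and 1.18 ± 0.35 from the pancreas (adjusted p = 0.00897). The second was no longer called without Liv_OFF replicate 1 (0.94, adjusted p = 0.101). Upstream, the −16.5 kb peak held 146 and 138 in Liv_OFF, 46.0, 84.8 and 62.0 in Lung_OFF and 25.6, 32.2 and 39.8 in Panc_OFF. The −5.1 kb peak was low outside the liver, with 28.0 to 38.3 in the 4 liver samples, 7.36 to 15.2 in the lungs and 0.854 to 11.1 in the pancreas. Its difference from the lungs (1.66 ± 0.61, adjusted p = 0.034) was not called without Liv_OFF replicate 1 (1.47, adjusted p = 0.167). The widest Ttr peak, at −23.6 kb, was high in all organs and higher in Liv_OFF (882 and 949) than in Lung_OFF (374, 629 and 682) by 0.75 ± 0.23 (adjusted p = 0.014). Without Lung_OFF replicate 1 its difference was 0.48, below the threshold. Summed over the 8 peaks, Ttr held 1101 to 1424 normalised counts in the 4 liver samples and 328 to 898 in the 12 others.

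Apoh on chromosome 11 had 3 peaks and all were higher in the liver in both OFF comparisons. At −17.3 kb (108377380 to 108378535, intergenic) Liv_OFF held 395 and 534, Lung_OFF 217, 206 and 215 and Panc_OFF 210, 230 and 206. The differences were 1.10 ± 0.19 and 1.09 ± 0.19 (adjusted p = 0.000381 and 0.000255). The peak nearest the start site (108396266 to 108396507) was low everywhere, with 19.5 to 23.4 in the 4 liver samples, 1.84 to 14.0 in the lungs and 0 to 5.98 in the pancreas. Its difference from the lungs (1.77 ± 0.80, adjusted p = 0.0766) was lost in 9 of 26 alternative settings, among them leaving out either Liv_OFF replicate (1.65 and 1.90), Lung_OFF replicate 1 (1.17) or Lung_OFF replicate 3 (1.83), and both count-based tests. The −9.8 kb peak (26.5 to 48.7 in the liver, 2.30 to 21.5 elsewhere) was called against the lungs at 1.83 ± 0.60, and not without Liv_OFF replicate 1 (1.51, adjusted p = 0.146).

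Cps1 on chromosome 1 had no call near its start site with Smad4 off. The +2.4 kb peak held 44.4 and 68.3 in Liv_OFF, 35.0, 39.1 and 61.2 in Lung_OFF and 68.3, 83.1 and 38.9 in Panc_OFF, with overlapping ranges and a log2 difference from the lungs of 0.33 ± 0.40 (adjusted p = 0.523). With Smad4 restored it held 66.4 and 70.1 in the liver and 27.6, 24.8 and 50.6 in the pancreas, without overlap, and was called higher in the liver (1.04 ± 0.40, adjusted p = 0.0364). The −9.5 kb peak was called higher in Lung_ON than in Panc_ON (0.63 ± 0.27, adjusted p = 0.0993). An intronic peak at +61.7 kb (67184502 to 67184941) differed, with 43.2 and 47.4 in Liv_OFF, 5.43 to 13.8 in Lung_OFF and 2.56 to 7.41 in Panc_OFF. Its differences were 2.30 ± 0.62 and 2.94 ± 0.62 (adjusted p = 0.00706 and 0.000974).

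**Figure D2:**
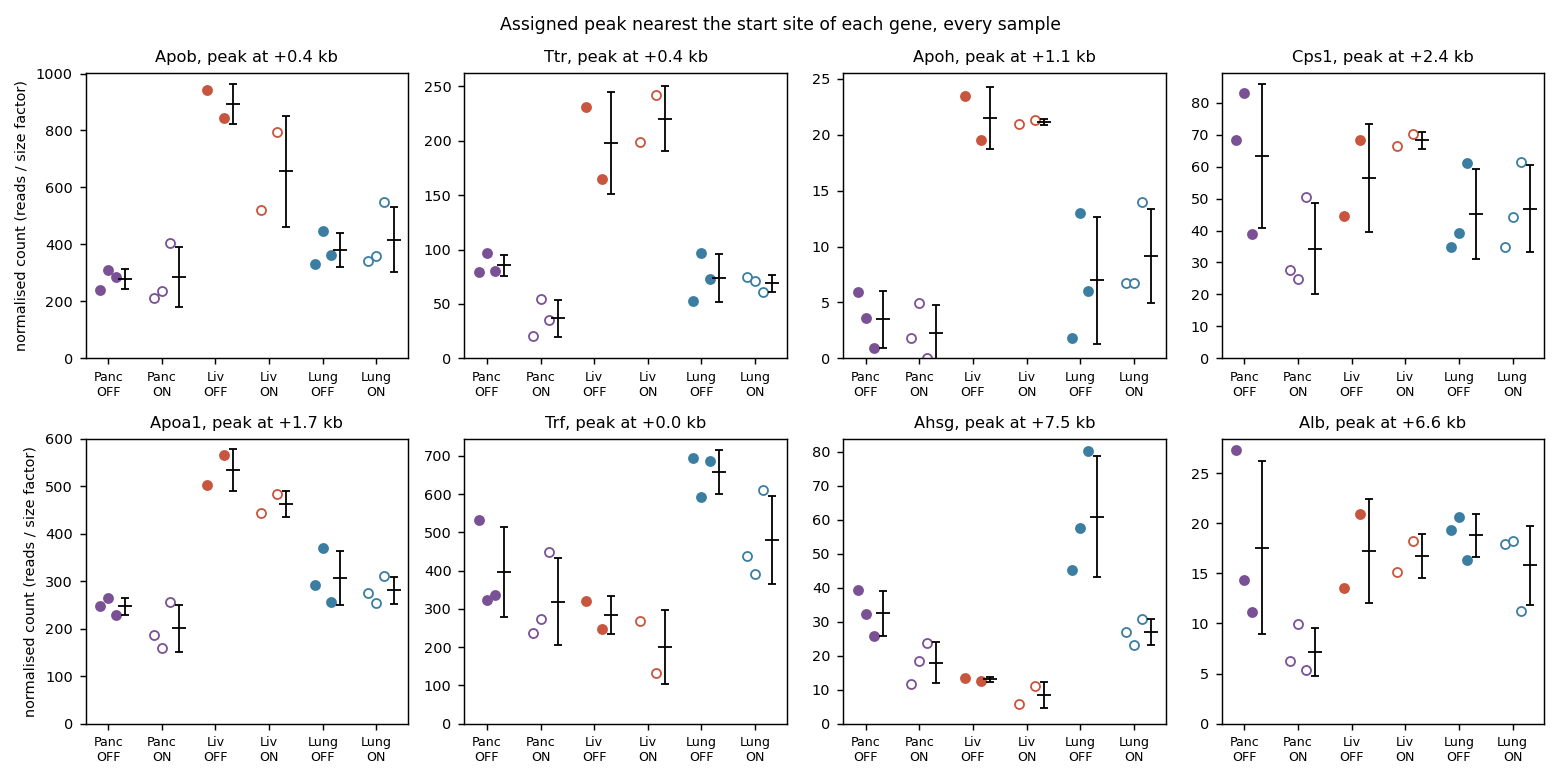
Normalised counts (vertical axis) of the assigned peak nearest the start site of each gene in every sample, by group. Filled points are Smad4 off, open points Smad4 restored, and bars the mean ± SD, cut at 0. The 4 liver samples lie above all others for Ttr, Apoh and Apoa1, and the Alb peak stays at 5.37 to 27.3 in all groups.

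Apoa1 on chromosome 9 held opposite patterns at the gene and upstream. The peak nearest its start site (46229771 to 46230779, exonic) held 502 and 566 in Liv_OFF, 293, 369 and 257 in Lung_OFF and 247, 265 and 229 in Panc_OFF. All 4 liver samples (444 to 566) were above the others (160 to 369), by 0.81 ± 0.21 over the lungs and 1.11 ± 0.21 over the pancreas (adjusted p = 0.00451 and 0.000364). The call against the lungs was lost when values were corrected for GC content (0.41, adjusted p = 0.126). The other 17 peaks assigned to Apoa1 all lay inside Sik3, the kinase gene beside it, so their link to Apoa1 rests on distance alone. Of these, 8 were lower in Liv_OFF than in Lung_OFF and 1 was higher, at −79.0 kb (1.47 ± 0.48). Among the 8, the calls at −64.8 and −31.5 kb were lost without Lung_OFF replicate 1 (−0.67 and −0.86, adjusted p = 0.366 and 0.233). The call at −55.3 kb was lost without Liv_OFF replicate 2 (−1.49). At −64.8 kb the groups overlapped, with 9.87 and 4.18 in Liv_OFF and 50.6, 8.69 and 13.8 in Lung_OFF. At −12.8 kb (46215342 to 46216171, intronic) Liv_OFF held 37.0 and 72.4, Lung_OFF 456, 235 and 344 and Panc_OFF 289, 155 and 169, a difference of −2.66 ± 0.45 from the lungs (adjusted p = 0.00031). This was the member peak of smallest p between liver and lung. At −77.0 kb the pancreas stood apart from both other organs, with 67.4 to 257 in its 6 samples, 7.11 to 24.5 in the liver and 7.67 to 35.0 in the lungs. Lung_OFF minus Panc_OFF was −3.15 ± 0.58 there (adjusted p = 0.00271).

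Trf, Ahsg and Alb had no peak called higher in Liv_OFF. The Trf start-site peak on chromosome 9 (103229394 to 103231105, promoter) held 320 and 248 in Liv_OFF, 695, 592 and 686 in Lung_OFF and 531, 322 and 336 in Panc_OFF. The liver was below the lungs (−1.22 ± 0.31, adjusted p = 0.00487), and was not called against the pancreas (−0.45 ± 0.31, adjusted p = 0.22). All 3 Ahsg peaks were low and lower in the liver, for example at +7.5 kb on chromosome 16 (22899199 to 22899959) with 13.6 and 12.5 in Liv_OFF, 45.1, 57.6 and 80.1 in Lung_OFF and 39.3, 32.2 and 25.9 in Panc_OFF. That peak differed by −2.10 ± 0.40 from the lungs (adjusted p = 0.000755) and by −1.23 ± 0.40 from the pancreas (adjusted p = 0.0157). The exonic Alb peak at +6.6 kb held 13.6 and 20.9 in Liv_OFF, 19.3, 20.6 and 16.4 in Lung_OFF and 27.3, 14.3 and 11.1 in Panc_OFF, with overlapping ranges and a difference of −0.14 ± 0.46 from the lungs. After restoration the Liv_ON samples held 15.1 and 18.3, Lung_ON 18, 18.2 and 11.2 and Panc_ON 6.22, 9.9 and 5.37. Liver and lungs were both called above the pancreas there (1.15 ± 0.46 and 1.05 ± 0.41, adjusted p = 0.0416 and 0.0752). The other Alb peak, at −13.1 kb (90447614 to 90447999), held 2.33 to 8.36 in the 4 liver samples and 13.8 to 43.3 in all others. It was called lower at −1.69 ± 0.56 (adjusted p = 0.0199), and not without Liv_OFF replicate 1 (−1.50, adjusted p = 0.118).

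The central 300 bases are given of the 6 distal peaks that were, for their genes, of smallest p between Liv_OFF and Lung_OFF, 2 higher and 4 lower in the liver. They were read 5′ to 3′ on the plus strand at chr11:108377808-108378107 (Apoh), chr1:67184572-67184871 (Cps1), chr9:46215607-46215906 (Apoa1), chr12:7922360-7922659 (Apob), chr16:22899430-22899729 (Ahsg) and chr5:90447657-90447956 (Alb), with capitals for the same motifs.
Apoh -17.3 kb, higher in the liver: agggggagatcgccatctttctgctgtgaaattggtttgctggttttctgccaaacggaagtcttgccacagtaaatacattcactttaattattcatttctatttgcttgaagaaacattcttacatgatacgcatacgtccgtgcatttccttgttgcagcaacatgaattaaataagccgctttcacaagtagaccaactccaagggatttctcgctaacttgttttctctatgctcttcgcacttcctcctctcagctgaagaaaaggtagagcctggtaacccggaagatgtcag
Cps1 +61.7 kb, higher in the liver: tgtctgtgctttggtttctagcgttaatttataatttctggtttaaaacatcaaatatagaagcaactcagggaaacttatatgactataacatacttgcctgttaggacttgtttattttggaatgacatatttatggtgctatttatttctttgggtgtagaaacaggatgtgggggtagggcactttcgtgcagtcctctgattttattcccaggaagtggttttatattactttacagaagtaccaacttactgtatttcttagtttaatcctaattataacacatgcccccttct
Apoa1 -12.8 kb, lower in the liver: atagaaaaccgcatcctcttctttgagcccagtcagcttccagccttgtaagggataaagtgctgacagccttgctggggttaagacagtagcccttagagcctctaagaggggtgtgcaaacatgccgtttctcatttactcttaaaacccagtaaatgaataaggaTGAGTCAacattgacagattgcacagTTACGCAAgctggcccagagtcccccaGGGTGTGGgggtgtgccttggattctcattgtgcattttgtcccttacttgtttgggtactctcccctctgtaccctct
Apob -55.1 kb, lower in the liver: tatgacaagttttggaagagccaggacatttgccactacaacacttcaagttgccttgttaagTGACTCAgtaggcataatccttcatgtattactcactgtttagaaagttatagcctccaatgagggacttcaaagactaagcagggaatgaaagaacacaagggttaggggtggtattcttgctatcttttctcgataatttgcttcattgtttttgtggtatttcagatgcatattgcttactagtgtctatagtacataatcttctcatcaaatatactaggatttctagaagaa
Ahsg +7.5 kb, lower in the liver: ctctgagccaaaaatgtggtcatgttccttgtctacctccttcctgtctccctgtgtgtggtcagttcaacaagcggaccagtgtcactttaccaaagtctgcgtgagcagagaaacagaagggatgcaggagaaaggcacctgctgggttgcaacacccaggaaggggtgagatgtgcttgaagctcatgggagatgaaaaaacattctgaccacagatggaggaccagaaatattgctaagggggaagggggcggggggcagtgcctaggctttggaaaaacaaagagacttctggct
Alb -13.1 kb, lower in the liver: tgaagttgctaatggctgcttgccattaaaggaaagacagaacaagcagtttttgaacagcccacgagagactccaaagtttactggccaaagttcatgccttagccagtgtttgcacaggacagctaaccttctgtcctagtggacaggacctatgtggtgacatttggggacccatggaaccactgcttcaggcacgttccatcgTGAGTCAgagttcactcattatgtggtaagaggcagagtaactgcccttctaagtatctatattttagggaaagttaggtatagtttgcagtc
The Apoh, Cps1 and Ahsg sequences held none of the 7 motifs. Of the 4 that were lower in the liver, Apoa1 held AP-1 letters at 169 to 175, Apob at 64 to 70 and Alb at 208 to 214, and Ahsg held none. The Apoa1 sequence also held C/EBP letters at 195 to 202 and KLF letters at 222 to 229. For Trf and Ttr the peak of smallest p was the start-site peak, and that of Trf, lower in the liver, held none of the motifs in its central 200 bases. Over the central 200 bases, AP-1 letters were found in 8 of the 19 member peaks lower in Liv_OFF than in Lung_OFF (42.1%) and in 4 of the 21 higher (19.0%). The shares over all nuclear peaks were 44.8% of those called lower, 15.6% of those called higher and 28.1% of all. HNF1 letters were found in 0 of the 64 member peaks (1.02% of all peaks), and HNF4 letters in 1 (0.794% of all), the Apob peak at +6.9 kb.

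The members were narrower than the atlas at the median and had lower counts. The median of their mean normalised counts was 37.7 against 57.5 over all nuclear peaks. Their median width was 509 bp and median GC content 45.1%, against 589 bp and 45.8% over all nuclear peaks. They comprised 4 promoter, 2 exonic, 26 intronic and 32 intergenic peaks, so that 6.25% reached within 1000 bp of a start site against 10.8% of all. Mean normalised counts ran from 5.17 to 831, and 15 of the 64 were under 20.

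**Figure D3:**
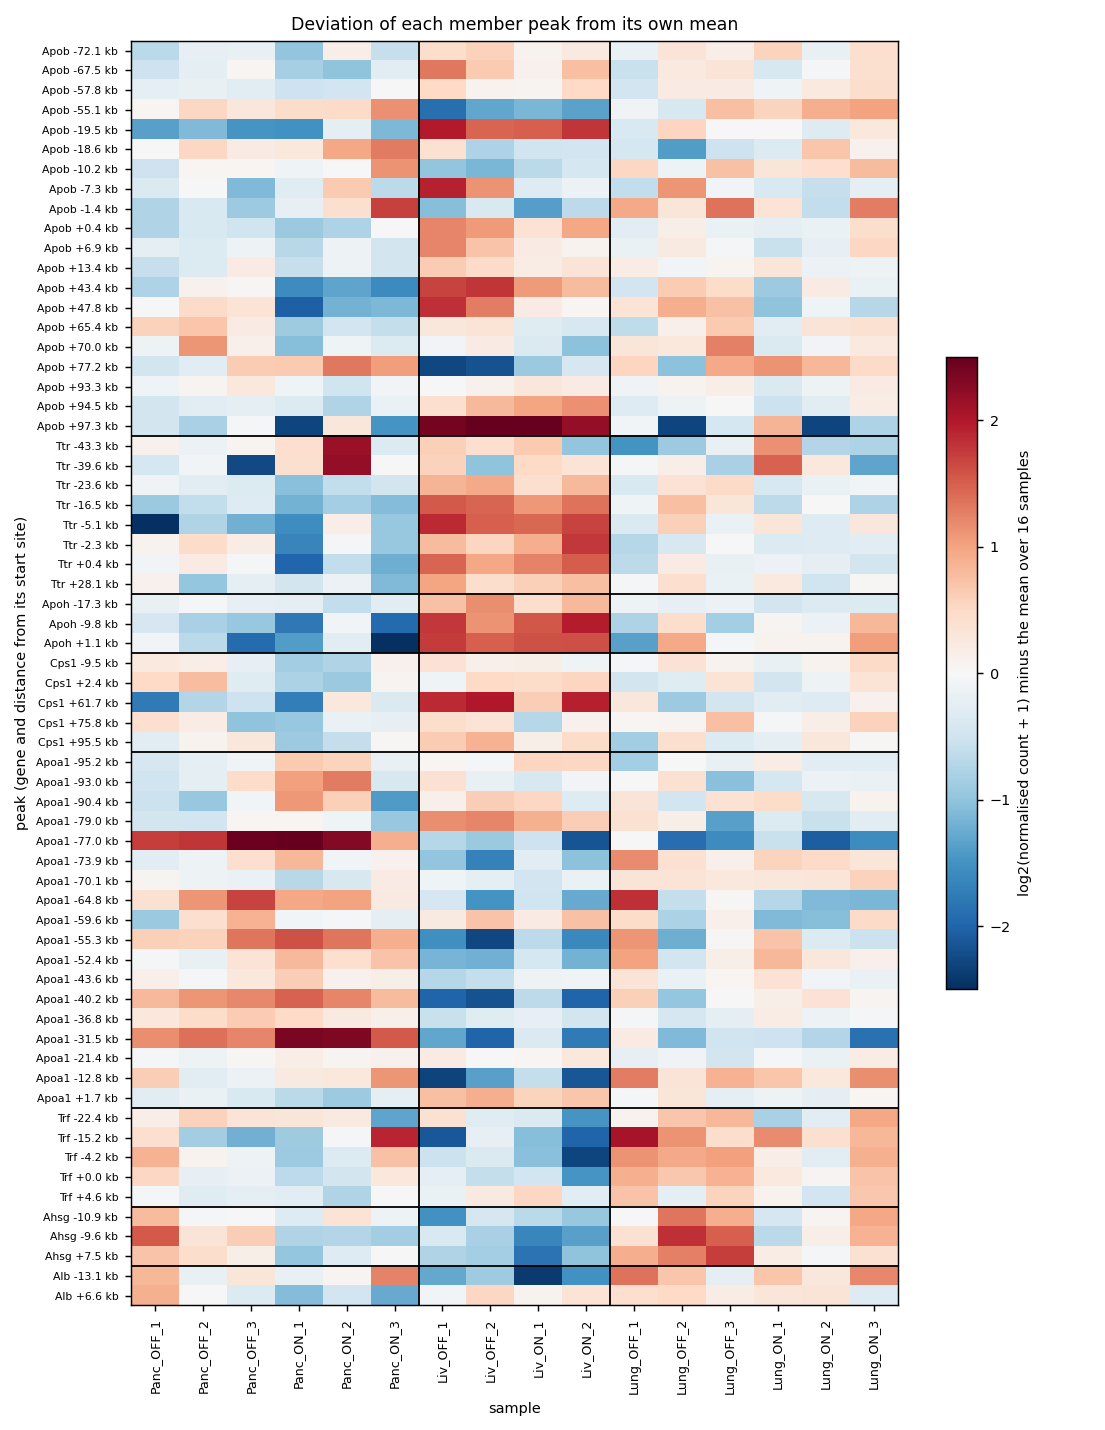
Colour gives log2(normalised count + 1) of each of the 64 member peaks (rows, by gene and distance) in each of the 16 samples (columns, by group) minus the mean of that peak. In the 4 liver columns the Ttr and Apoh rows are mostly red (above the mean) and the Ahsg and most Trf and Apoa1 rows blue (below it).

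With Smad4 restored there were 30 calls between liver and lung, against 40 with Smad4 off, and 40 between liver and pancreas, against 39. Whether the counts differ was not tested. Liv_ON was higher than Lung_ON at 15 member peaks (17.6% of all peaks were) and lower at 15 (18.2% of all), and higher than Panc_ON at 22 (27.1% of all) and lower at 18 (32.2% of all). The count against the lungs fell to 8 without Liv_ON replicate 2. Ttr had 5 peaks higher than in the lungs and 6 higher than in the pancreas, with none lower in either comparison. Pancreas and lungs differed at fewer members. Lung_OFF was higher than Panc_OFF at 6 (6.59% of all peaks were) and lower at 3 (10.7% of all), and Lung_ON was higher than Panc_ON at 9 (12.8% of all) and lower at 5 (14.9% of all). The 9 OFF calls fell to 2 without Lung_OFF replicate 2, 3 without Panc_OFF replicate 3 and 4 without Panc_OFF replicate 2. The 14 ON calls fell to 3 without Panc_ON replicate 1, 5 without Lung_ON replicate 3 and 8 without Lung_ON replicate 2. The 3 lower in Lung_OFF were all Apoa1 peaks within Sik3.

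Calls for restoration of Smad4 were few, both among the members and over all peaks. With n = 2 or 3 per group, a missing call does not show that a peak stayed the same. In the pancreas 0 member peaks were higher (0.364% of all peaks were) and 5 were lower (7.81%, against 3.06% of all). They were Apob at +43.4, +47.8 and +65.4 kb, the Ttr start-site peak and Ahsg at −9.6 kb. In the liver 0 were called in either direction (0.55% of all peaks were) with 6 at an unadjusted p under 0.05, and in the lungs 0 (0.00366% of all), also with 6. edgeR called 0 in both organs, while DESeq2 called 1 in each, the Apob peak at +47.8 kb, as lower. Over all peaks DESeq2 called 2613 higher and 572 lower in the liver, and 452 higher and 545 lower in the lungs. Averaged over the organs, 1 member was higher (1.56%, against 3.61% of all) and 6 were lower (9.38%, against 3% of all). The count in the pancreas was 0 without Panc_OFF replicate 2, 1 without Panc_OFF replicate 1 or Panc_ON replicate 1, 2 without Panc_OFF replicate 3 and 3 without Panc_ON replicate 2 or either Liv_OFF replicate. The averaged count of 7 was 2 without Liv_OFF replicate 1 and 4 without Lung_ON replicate 1.

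The Apob peak at +47.8 kb (8025179 to 8025718, intergenic) had the lowest averaged difference of the members. It held 57.2, 80.4 and 73.2 in Panc_OFF and 13.3, 24.8 and 26.1 in Panc_ON, 207 and 142 in Liv_OFF and 66.4 and 59.9 in Liv_ON, and 73.6, 109 and 96.5 in Lung_OFF and 28.1, 53.7 and 34.5 in Lung_ON. No restored sample overlapped the Smad4-off samples of its own organ. The log2 differences were −1.71 ± 0.31 in the pancreas (adjusted p = 0.0176), −1.43 ± 0.39 in the liver (adjusted p = 0.143) and −1.27 ± 0.31 in the lungs (adjusted p = 0.327). The average was −1.47 ± 0.20 (adjusted p = 0.00221), and was called in all 26 alternative settings. The call in the pancreas was lost without Panc_OFF replicate 2 (−1.61, adjusted p = 0.106).

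The other Apob calls in the pancreas depended on which samples were kept. At +43.4 kb (8020711 to 8021382) Panc_OFF held 22.2, 42.0 and 39.8 and Panc_ON 12.4, 14.9 and 12.3, a difference of −1.28 ± 0.36 (adjusted p = 0.0838). That call was lost on leaving out 11 of the 16 samples in turn, each of the 6 pancreas samples among them (adjusted p from 0.102 to 0.306 for those 6). At +65.4 kb (8042582 to 8043429) Panc_OFF held 183, 200 and 142 and Panc_ON 65.8, 87.9 and 81.2, a difference of −1.14 ± 0.29 (adjusted p = 0.054). It was lost without Panc_OFF replicate 1 or 2 (−1.11 and −1.04) and without Panc_ON replicate 1 or 2 (−1.03 and −1.23). In the lungs this peak held 79.2, 134 and 193 with Smad4 off and 101, 153 and 160 with Smad4 restored, which overlap. Averaged over organs, +43.4 kb (−0.86 ± 0.23, adjusted p = 0.0382) and +70.0 kb (−0.77 ± 0.24, adjusted p = 0.0739) were lower, and +77.2 kb, with 1.23 to 26 in all samples, was higher (1.08 ± 0.32, adjusted p = 0.0611). The first was lost without Liv_OFF replicate 1 (adjusted p = 0.103), the second on leaving out 9 of the 16 samples in turn and the third on leaving out 8.

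**Figure D4:**
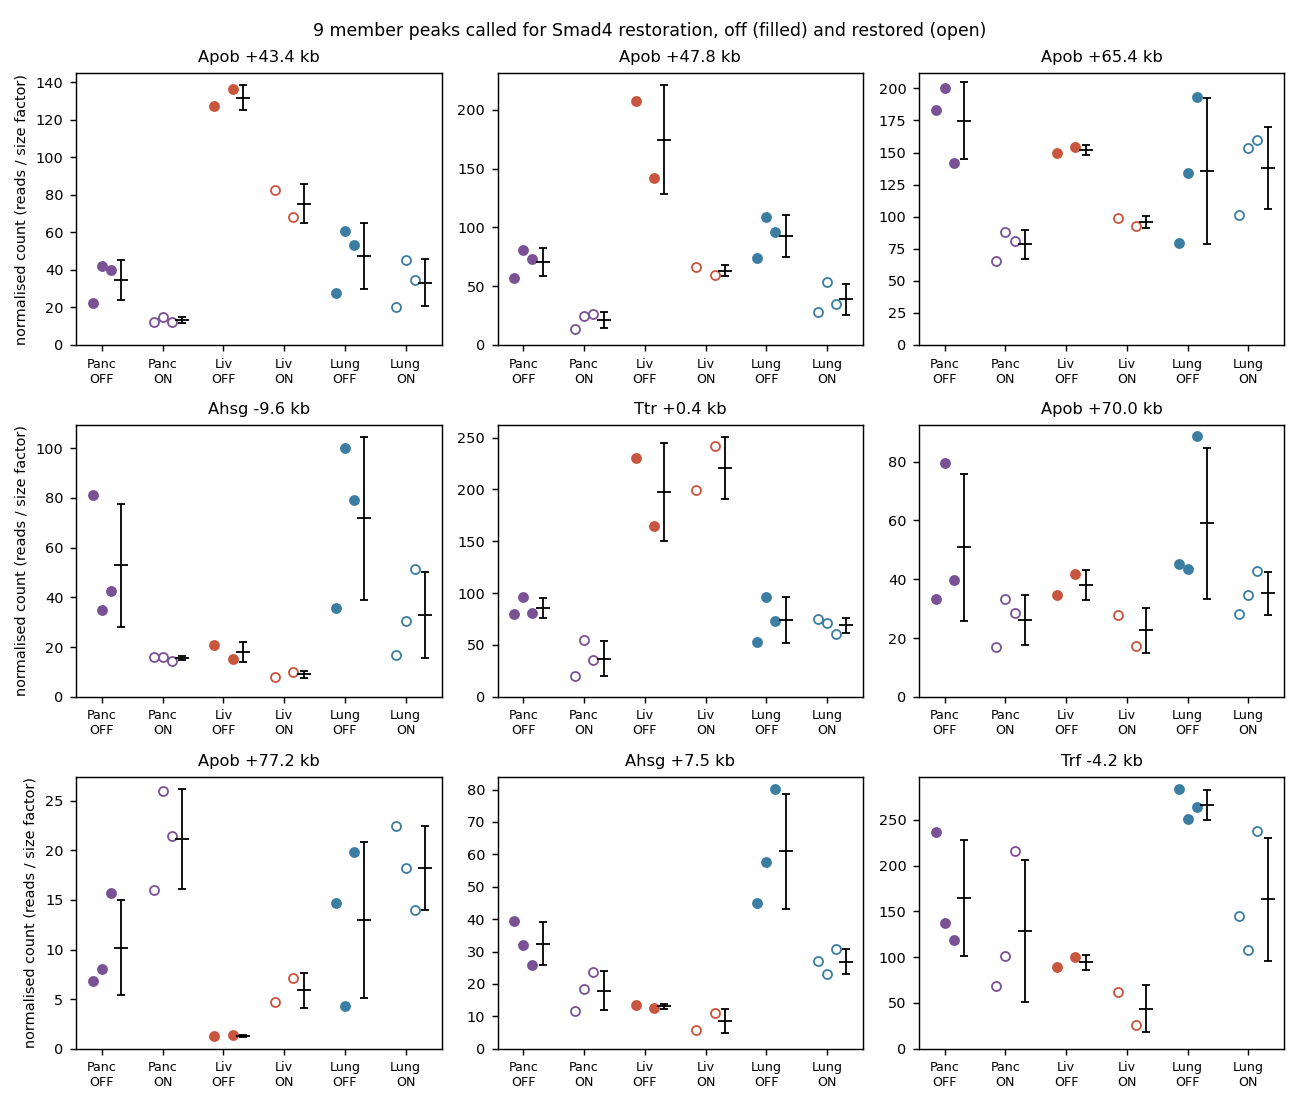
Normalised counts (vertical axis) in every sample by group for the 9 member peaks called for restoration in the pancreas or averaged over organs, with Smad4 off filled and restored open, and bars for the mean ± SD. At Apob +47.8 kb the restored samples (13.3 to 66.4) lie below the Smad4-off samples of their organ in all 3 organs.

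The Ttr start-site peak fell in the pancreas, from 79.4, 96.5 and 80.6 to 20.4, 54.5 and 35.3 (−1.30 ± 0.31, adjusted p = 0.0478). In the liver it was 231 and 164 before and 199 and 242 after (0.17 ± 0.39), and in the lungs 52.5, 96.7 and 73.2 before and 75.2, 70.9 and 60.7 after (−0.07 ± 0.31), with overlap in both. The call in the pancreas was lost without any 1 of the 3 Panc_OFF samples or Panc_ON replicate 1 (−0.94). Ahsg at −9.6 kb on chromosome 16 (22881498 to 22881946) fell from 81.1, 34.8 and 42.6 to 16, 16.1 and 14.6 in the pancreas (−1.61 ± 0.45, adjusted p = 0.0788), a call lost on leaving out 9 of the 16 samples in turn, each of the 6 pancreas samples among them. Its average over organs was −1.21 ± 0.28 (adjusted p = 0.0223) and was called in all 26 alternatives. The averaged calls of Ahsg at +7.5 kb (−0.87 ± 0.23) and of Trf at −4.2 kb (−0.82 ± 0.25) were lost on leaving out 2 and 9 of the 16 samples in turn.

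Whether restoration acted differently by organ was tested by interaction terms. For liver against lung, liver against pancreas and lung against pancreas, 0 member peaks were called (0% of all nuclear peaks). At an unadjusted p under 0.05 there were 0, 3 and 4. Neither edgeR nor DESeq2 called a member. For lung against pancreas DESeq2 called 1580 of all peaks higher and 675 lower. The Ttr start-site peak was thus called in 1 organ without a called difference between organs, which does not show that the organs responded alike. For Apob +65.4 kb the lung minus pancreas difference was 1.24 ± 0.40 (adjusted p = 0.305). It was called when same-numbered lung samples, which deviated together, were treated as pairs (adjusted p = 0.0767). With these pairs 1736 of all 136630 peaks were called higher and 649 lower.

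Other hepatocyte genes gave a mixed picture. Of 60 other genes for secreted hepatocyte proteins, 47 had peaks. Of their 177 peaks 38 were higher in Liv_OFF than in Lung_OFF and 53 lower (21.5% and 29.9%), with a median log2 difference of −0.01. These shares lay near those of all nuclear peaks, 22.9% higher and 26.8% lower. Of 26 metabolic genes 21 had peaks, 50 of 99 higher and 14 lower (50.5% and 14.1%), with a median of 0.72. Of 12 hepatocyte transcription factor genes 11 had peaks, 42 of 117 higher and 21 lower (35.9% and 17.9%). The 3 secreted-protein peaks of smallest p were a Plg peak at −8.6 kb (plasminogen, 377 ± 66.5 (SD) in Liv_OFF and 53.2 ± 20.2 in Lung_OFF, log2 2.85 ± 0.34 SE), an Rbp4 peak at +13.6 kb (retinol-binding protein, 26.2 ± 0.392 and 147 ± 38.2, log2 −2.41 ± 0.30 SE) and an Apoc1 peak at +5.5 kb (apolipoprotein C1, 197 ± 119 and 12.7 ± 3.10, log2 3.74 ± 0.47 SE). Near the members, 1124 peaks within 1 Mb of a member start site and assigned to neither the members nor these secreted and metabolic genes were called higher at 25.4% and lower at 25.6%, against 32.8% and 29.7% of the members. Their median log2 difference of Liv_OFF minus Lung_OFF varied by locus, from −0.24 around Ahsg to 0.47 around Ttr. The surroundings of Ttr and Ahsg thus shifted in the direction of their member peaks. Those of Cps1 (0.44) and Apob (0.16) shifted as most of their called member peaks did. Around Trf (0.07) and Alb (−0.05) the median was near 0. Around Apoa1 (0.40) and Apoh (−0.17) the median went against most of their called member peaks.

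**Figure D5:**
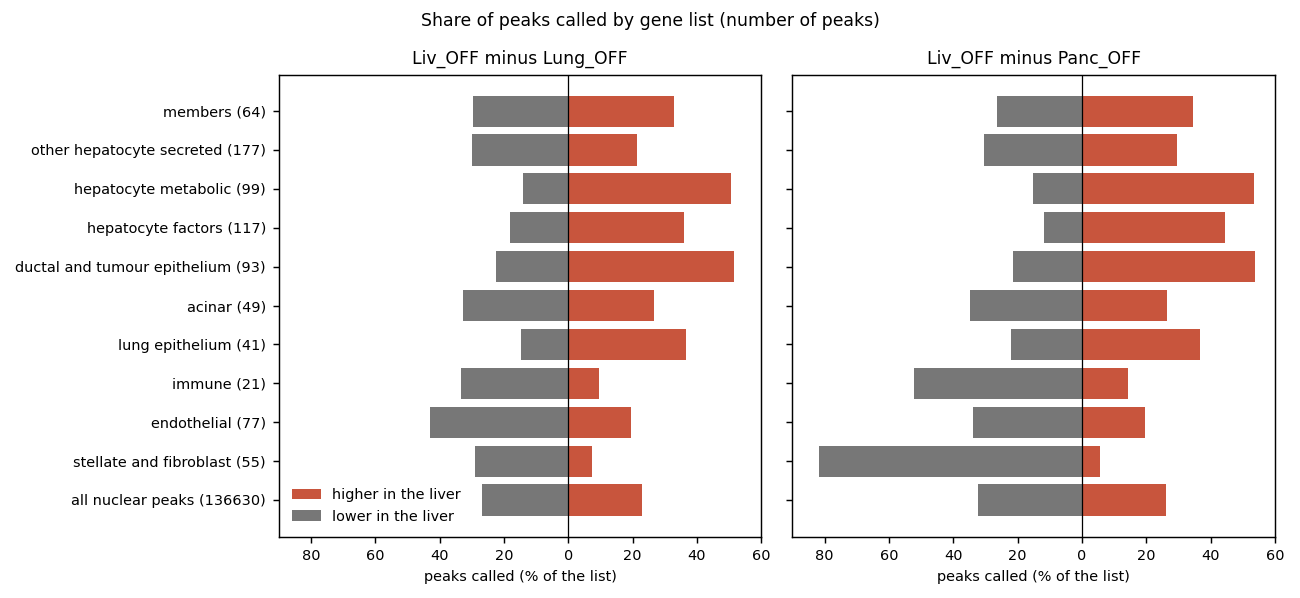
Share of peaks called higher (right) or lower (left) in Liv_OFF than in Lung_OFF or Panc_OFF, in percent of each gene list, with the number of peaks in parentheses. The members lie at 32.8% and 29.7% against the lungs, beside 22.9% and 26.8% of all nuclear peaks, and the metabolic list at 50.5% and 14.1%.

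Markers of other cell types are given beside the 22.9% of all peaks called higher in Liv_OFF than in Lung_OFF and the 26.8% called lower. Of 93 peaks of 8 ductal epithelial genes 48 were higher and 21 lower (51.6% and 22.6%), of 49 acinar peaks 13 and 16 (26.5% and 32.7%), and of 41 lung epithelial peaks 15 and 6 (36.6% and 14.6%). Against Lung_OFF, Liv_OFF was lower at 16 of 55 peaks of 8 stellate and fibroblast genes, 33 of 77 peaks of 8 endothelial genes and 7 of 21 peaks of 10 immune genes (6 of which had peaks), which is 29.1%, 42.9% and 33.3%, and higher at 4, 15 and 2. Against Panc_OFF it was lower at 45 of the 55 stellate and fibroblast peaks (81.8%, against 32.3% of all). Their summed normalised counts were 1879 to 2729 in the 4 liver samples, 2511 to 4399 in the lungs and 5365 to 9954 in the pancreas. The endothelial sums were 6935 to 7975 in Liv_OFF and spread widely in Lung_OFF, from 8048 to 15076 with a mean of 10561. With Smad4 restored, the liver was lower than the lungs at 16 of the 77 endothelial peaks (20.8%, against 18.2% of all). Of hepatocyte genes, Alb had no peak at its start site and at most 20.9 normalised counts in a liver sample at its 2 peaks, while 50.5% of the metabolic peaks were higher in Liv_OFF. The part of host cells, hepatocytes included, in the member differences was not tested.

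The mean level over the members' loci, log2(normalised count + 1) averaged over the peaks of each gene and then over the 8 genes, was 5.30 ± 0.02 (SD) in Liv_OFF, 5.05 ± 0.02 in Liv_ON, 5.39 ± 0.10 in Lung_OFF, 5.24 ± 0.19 in Lung_ON, 5.11 ± 0.17 in Panc_OFF and 4.82 ± 0.25 in Panc_ON. Lung_OFF and Liv_OFF, at the top of this order, differed by no more than the spread of Lung_OFF. Of 11551 other protein-coding genes with at least 3 peaks, those whose level followed this mean most closely over the 16 samples were Slain1, Ing2, Trim71, Wnk2 and Plekhf1, with Pearson's r of 0.888 to 0.866. The 8 members themselves ranged from −0.57 (Apoa1) to 0.62 (Apob). The points share their samples and size factors, and the values describe likeness of pattern only.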

How the data were processed

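ATAC-seq reads of the 16 samples had been trimmed, aligned to mm10 with Bowtie2 and called as peaks with MACS2 (p of 0.001) by the authors, who merged peaks within 500 bp into 1 atlas and counted reads with featureCounts. The deposited signal is those counts divided by DESeq2 size factors. Handling of duplicates, any shift of reads for the transposase and the filter behind the deposited table are not given in the sources used here. Whole reads were recovered from the values (100% whole within 0.01 reads). Mitochondrial peaks (1.43% to 3.56% of reads) were left out, and 0 columns of sample values were unused.

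Peaks were assigned to the nearest protein-coding start site of GENCODE vM21 within 100 kb. limma 3.58.1 (R 4.3.3, trend and robust) was run on log2(normalised count + 1) with 1 mean per group over 136630 peaks, with Benjamini-Hochberg adjustment and calls at 0.58 and 0.1. On simulated data for Liv_OFF minus Lung_OFF with 200 changed peaks of 136630, 5% at a log2 size of 1 and 77% at a size of 2 were recovered, with 17 false calls. In the real data 31293 peaks were called higher and 36598 lower in this comparison. With so many more calls, the adjustment admits larger p-values than in the simulation. The simulated shares therefore do not describe the calls given here. Alternatives were a pseudocount of 10, a filter at a mean of 20, other scalings, a GC correction, thresholds of 1 and 0.05, assignment within 50 kb, edgeR 4.0.16, DESeq2 1.42.0 and leaving out each sample. Same-numbered samples deviated together in the lungs (correlations 0.491, 0.124 and 0.214) and not in the pancreas (−0.33, 0.0271 and −0.33) or the liver (0.0834), and a block for the lungs alone was added after seeing the data.

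The text names all 10 members, the peak nearest each start site, the called peak of smallest p between Liv_OFF and Lung_OFF and each peak called for restoration, and other peaks were named after their values were seen. The members and lists were chosen with earlier results of these data known. Per the study's figure legend each sample came from its own mouse. Cell line per mouse is not given, so p-values measure the spread between these mice.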

Additional observations from a re-analysis of the deposited data

Results flagged for a closer look

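The Apob peak at +65.4 kb stood out for the effect of Smad4 restoration in the lungs against the pancreas. The difference was called with the replicate block in the lungs, and not in the main fit. That block called 1736 of all 136630 peaks higher and 649 lower, where the main fit called 0. The lung change minus the pancreas change was 1.24 on the log2 scale, with an adjusted p of 0.0767 from limma when same-numbered lung samples were treated as pairs. Without the pairs the adjusted p was 0.305 (SE 0.40). The liver change at this peak was −0.66 ± 0.35, between the change in the pancreas (−1.14 ± 0.29) and that in the lungs (0.09 ± 0.29).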

How the results depend on the processing

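Of 369 recomputed counts of called member peaks, 340 stayed within 1.5 times the reported count. With thresholds of 1 and 0.05, Lung_OFF minus Panc_OFF gave 4 calls in place of 9, Liv_ON minus Lung_ON 18 in place of 30, Lung_ON minus Panc_ON 5 in place of 14, restoration in the pancreas 2 in place of 5 and averaged restoration 2 in place of 7. Lung_ON minus Panc_ON gave 22 with quantile normalisation, which moved the median of all peaks to 0.11, and 9 within 50 kb. Over all peaks that normalisation called 25224 higher and 19156 lower, against 17550 and 20384 in the main fit. Restoration in the pancreas gave 3 when only the compared groups were fitted. DESeq2 gave 1 call in place of 0 for restoration in the liver (2613 of all peaks higher, 572 lower) and 1 in the lungs (452 and 545). The replicate block in the lungs gave 1 in place of 0 for the lung against pancreas difference in restoration, with and without GC correction. Over all peaks it called 1736 higher and 649 lower without the correction, and 1358 and 517 with it.

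Leaving out each sample in turn gave 27 to 40 calls for Liv_OFF minus Lung_OFF, 31 to 39 against Panc_OFF, 2 to 9 for Lung_OFF minus Panc_OFF, 8 to 32 for Liv_ON minus Lung_ON, 28 to 41 for Liv_ON minus Panc_ON, 3 to 19 for Lung_ON minus Panc_ON, 0 to 5 for restoration in the pancreas, 0 to 1 in the liver, 0 in the lungs and 2 to 9 averaged. The cause of these shifts was not tested.

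The replicate block over all organs gave 38 calls for Liv_OFF minus Lung_OFF, 41 against Panc_OFF, 5 for restoration in the pancreas and 7 averaged. It ended the Apoh +1.1 kb call against the lungs (1.57, adjusted p = 0.127). The split of higher to lower calls moved to 11 and 16 for Liv_OFF minus Lung_OFF with the stricter thresholds. It moved to 24 and 11 against Panc_OFF with quantile normalisation (35884 and 37355 over all peaks). For Lung_OFF minus Panc_OFF it was 4 and 4 with edgeR (10126 and 14991 over all peaks). For Lung_ON minus Panc_ON it was 5 and 5 with only the compared groups.

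Of 428 recomputed differences at the start-site peaks, 16 reversed, all in peaks that were not called. Alb +6.6 kb against the lungs was 0.14 with quantile normalisation and −0.43 to 0.15 leaving out samples. Against the pancreas it was −0.04 with TMM, −0.14 with the block, −0.24 with GC correction, −0.41 with both, −0.13 with edgeR, −0.04 with DESeq2 and −0.25 to 0.39 leaving out samples. Cps1 +2.4 kb against the pancreas was 0.03 with quantile normalisation, 0.12 with GC correction, 0.22 with GC correction and the block and −0.44 to 0.17 leaving out samples. Peaks under a mean of 20 rest on few reads.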
